A study of Mus musculus with 12 samples.

Results

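The regions described here are intergenic H3K4me3 peaks of Min6 cells, 2086 of the 19372 H3K4me3 peaks (10.8%) in the deposited DMSO list. They were chosen by a fixed rule on the H3K4me3 peak lists and the gene annotation. A member was under 5000 bp wide, was overlapped by at least 1 bp by a peak of the JNKi H3K4me3 list, had its midpoint more than 3 kb from every transcription start site of the GENCODE vM21 basic annotation (GRCm38), and had that midpoint outside every gene body. The H3K4me3 lists therefore fixed that each member was present under both treatments, and its presence, width and position are given below as description with no test.

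The series used CUT&RUN, in which an antibody-directed nuclease releases chromatin fragments in permeabilised cells, on Min6, a mouse insulinoma line with β cell features. Cells received DMSO or the JNK inhibitor SP600125 at 20 µM (JNKi) for 48 hours, and 550000 cells were used per reaction. Each treatment was profiled with an IgG control, an antibody to cJun and an antibody to H3K4me3, giving 12 samples in 6 groups of 2, all from 1 cell line and 1 inhibitor at 1 dose. The 4 deposited lists hold 1 set of peaks matched between the replicates per treatment and antibody, with both replicates in separate columns, so each treatment contributes 1 list. A target depth per sample is stated in the methods of the study, while the depth reached by each library is not in the files. H3K4me3 covered the annotated starts of 5 of 6 β cell genes in both treatments, *Ins1* being the one without a peak, and of 1 of 7 genes of other cell types, *Gcg*. These counts are of presence alone. As a percentile of peak strength within its list, *Pdx1* lay at 0.0103 in DMSO and 13.7 in JNKi, and *Gcg* at 2.85 and 28.9. *Neurod1* lay at 87.8 and 5.79, and *Ins2*, *Mafa* and *Nkx6-1* at 57.8 or higher in both.

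H3K4me3 is trimethylation of lysine 4 on histone H3 and is placed by SET1 and MLL complexes, mainly on nucleosomes beside active or CpG-rich promoters. Away from gene starts it is usually weaker than the monomethylated form, and it is found at unannotated promoters, at strongly transcribed enhancers and around tRNA genes, which RNA polymerase III transcribes. cJun is a subunit of AP-1, a factor that binds the letters TGAGTCA, read as TGACTCA on the other strand, and its transactivation domain is phosphorylated by JNK.

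The 6 sequences that follow show the kinds of region that met the rule. They are GRCm38 plus-strand reference sequence, named by the closest protein-coding gene. In the Rabepk, Tln2, Gm15446 and Cck windows capitals mark each CpG dinucleotide, the base pair step that sets CpG islands apart. In the Larp1 window they mark the AP-1 letters, and in the Mdm4 window a lysine tRNA gene, n-TKctt26. Rabepk (chr2:34802918-34803157) is the member of highest deposited DMSO −log10 p, the peak caller's measure of strength. The deposited value is the lower of the replicates, and it sets each rank given here. Tln2 (chr9:67633361-67633600) is the highest that met a CpG island criterion, and Larp1 (chr11:57962755-57962994) the highest with both AP-1 letters and a DMSO cJun peak. Gm15446 (chr5:109866729-109866968) is the highest with a cJun peak in both treatments, and Mdm4 (chr1:133033898-133034097) the highest over a tRNA gene. The farther of the members downstream of *Cck* is shown at chr9:121486773-121487072.
Rabepk: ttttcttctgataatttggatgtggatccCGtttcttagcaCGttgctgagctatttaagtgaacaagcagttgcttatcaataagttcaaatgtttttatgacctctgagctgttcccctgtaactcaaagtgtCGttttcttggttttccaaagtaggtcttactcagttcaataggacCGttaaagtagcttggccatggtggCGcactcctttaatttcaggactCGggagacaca
Tln2: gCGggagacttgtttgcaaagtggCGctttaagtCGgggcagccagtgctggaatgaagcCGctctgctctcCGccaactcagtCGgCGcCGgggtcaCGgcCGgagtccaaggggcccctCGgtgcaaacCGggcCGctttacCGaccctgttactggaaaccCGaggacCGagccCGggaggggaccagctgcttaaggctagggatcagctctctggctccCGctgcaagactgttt
Larp1: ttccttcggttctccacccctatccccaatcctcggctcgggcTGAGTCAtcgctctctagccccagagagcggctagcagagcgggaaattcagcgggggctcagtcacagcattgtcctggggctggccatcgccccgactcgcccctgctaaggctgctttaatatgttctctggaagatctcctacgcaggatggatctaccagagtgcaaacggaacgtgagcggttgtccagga
Gm15446: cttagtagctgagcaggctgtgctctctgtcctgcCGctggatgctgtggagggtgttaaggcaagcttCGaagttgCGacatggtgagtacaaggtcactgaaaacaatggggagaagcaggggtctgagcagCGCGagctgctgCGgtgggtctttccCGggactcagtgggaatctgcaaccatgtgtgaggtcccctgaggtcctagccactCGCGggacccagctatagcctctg
Mdm4: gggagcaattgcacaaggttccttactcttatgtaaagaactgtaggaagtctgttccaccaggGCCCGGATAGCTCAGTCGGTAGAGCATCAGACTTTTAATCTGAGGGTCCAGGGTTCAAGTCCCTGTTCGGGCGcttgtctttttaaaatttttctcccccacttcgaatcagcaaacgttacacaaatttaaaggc
Cck member, farther: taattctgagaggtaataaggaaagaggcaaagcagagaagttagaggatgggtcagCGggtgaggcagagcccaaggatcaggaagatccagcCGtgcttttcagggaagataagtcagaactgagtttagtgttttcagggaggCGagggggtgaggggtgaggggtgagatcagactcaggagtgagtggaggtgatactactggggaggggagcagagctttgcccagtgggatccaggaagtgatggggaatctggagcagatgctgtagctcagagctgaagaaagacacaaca
The Tln2 window held 18 CpG in 240 bases, the Rabepk window 6 and the Gm15446 window 9. The Cck window held 3 CpG in 300 bases.

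Members were short, weak peaks compared with promoter peaks. Their median width was 877 bp (quartiles 614 to 1279; range 191 to 4903), against 919 bp for 2479 intragenic peaks and 2294 bp for 12963 promoter peaks selected in the same way except for position. The median −log10 p against IgG was 22.9 in the first and 22.2 in the second DMSO replicate column, and 30.4 and 20.3 in the JNKi columns. Since the scale of −log10 p depends on depth, strength was also expressed as a percentile of all peaks of the same list and column. The deposited value, which equals the lower of the replicates, lay at a median DMSO percentile of 28.2 in members, 25.3 in intragenic peaks and 63.7 in promoter peaks. Of the members 57.9% had an irreproducible discovery rate (IDR) of at most 0.05, against 73.0% of all DMSO H3K4me3 peaks, and 1 member was in the strongest 10% of the list.

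The members lay at a median of 12896 bp from the nearest start site (quartiles 6750 to 25422). In all 317 were 3 to 5 kb away, 524 were 5 to 10 kb, 563 were 10 to 20 kb, 490 were 20 to 50 kb, 144 were 50 to 100 kb and 48 were farther. The median −log10 p was 19.8 at 3 to 5 kb, 23.2 at 5 to 10 kb and 11.4 beyond 100 kb. So the closest bin was not the strongest, and the few most distant peaks were the weakest. Members just inside the 3 kb limit were closest to *Macf1* (3003 bp) and *Cryba2* (3015 bp), and the 3 peaks just outside it to *Stim2* (2995 bp), *Sos1* (2987 bp) and *Naglu* (2964 bp). DMSO −log10 p was 37.7 and 44.2 at *Macf1*, inside, and 133 and 120 at *Stim2*, outside. Named by closest protein-coding gene, the widest members were those of *Cbx8* (4903 bp wide), *Hfe2* (4128 bp) and *Dedd2* (3931 bp). The narrowest intergenic peaks too wide for the rule were those of *Kdm6b* (6708 bp wide), *Aen* (7612 bp) and *Parp8* (8355 bp). The last of these lay 316542 bp from the *Parp8* start.

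Members were spread over all autosomes and the X chromosome, with 196 on chromosome 11, 154 on chromosome 4, 57 on X and 0 on Y. Promoter peaks numbered 1028, 847, 448 and 0 on the same chromosomes. Another DMSO H3K4me3 peak lay within 10 kb of 868 members (41.6%; Wilson 95% interval 39.5 to 43.7), and it was a promoter peak for 443 of them and another intergenic peak for 384. No other H3K4me3 peak lay within 50 kb of 459 members (22.0%). These counts were not taken for other classes or the whole list, so they do not set members apart. Measured from the nearest gene body of any type, 1151 members (55.2%) lay on its 3′ side and 935 (44.8%) on its 5′ side. The rule excluded midpoints within 3 kb of a start site, but none for lying just past a 3′ end. Nothing is therefore read from this split. The members shared 1665 closest protein-coding genes, 304 of which had more than 1 member, led by *Pax2* with 9 and *Snrpn*, of the imprinted Prader-Willi region, with 8.

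The description "far from promoters" held for the GENCODE basic set that the rule used, but not for every annotation. A second annotation, RefSeq on the same assembly, placed a transcript or tRNA start within 1 kb of 260 members (12.5%; 11.1 to 14.0) and within 3 kb of 398 (19.1%), against 64.2% and 73.7% of all DMSO H3K4me3 peaks. Of the 260, 135 were starts of long non-coding RNAs, 63 of tRNAs, 53 of protein-coding transcripts, 7 of other RNAs and 2 of small RNAs, and 164 of the starts belonged to predicted models. Protein-coding starts were at 53 members (2.54%) and at 219 intragenic peaks (8.83%), against 55.1% of all DMSO H3K4me3 peaks. Long non-coding RNA starts were at 135 members (6.47%), 62 intragenic peaks (2.50%) and 5.62% of promoter peaks, and the share of members was near the 5.22% of all DMSO H3K4me3 peaks. This annotation was consulted after results of the data were known, and these counts are description. Members with a RefSeq start within 1 kb and no tRNA gene had a median −log10 p of 26.5 (n = 205), against 17.9 for the 1824 with neither.

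The 10 strongest members by deposited DMSO value show how mixed the group was. The *Rabepk* member, 3154 bp from the start of the gene for a Rab9 effector, gave −log10 p of 385 and 414 in DMSO and 501 and 418 in JNKi. *Tln2*, which encodes the cytoskeletal adaptor talin 2, had 424 and 339 in DMSO against 277 and 306 in JNKi. RefSeq starts a *Tln2* transcript 486 bp from that midpoint, whereas the closest GENCODE basic start of any gene was 66693 bp away. At *Gpr161*, a ciliary G protein-coupled receptor that restrains Hedgehog signalling, DMSO gave 301 and 285 and JNKi 247 and 209, with a RefSeq *Gpr161* start 400 bp away.

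In contrast to these, the member near *Bbc3*, the gene for the pro-apoptotic protein PUMA, was 8547 bp from any RefSeq start. DMSO gave 330 and 339 there, JNKi 393 and 327, and a DMSO cJun peak of 11.1 and 14.5 overlapped it. At *Pax2*, a paired-box transcription factor gene, the DMSO values were 541 and 294 and the JNKi values 461 and 11.9. The second JNKi column therefore stood apart from the other columns at this locus, where a JNKi peak of 5321 bp overlapped this member of 3926 bp and a neighbouring member of 662 bp. The other 5 of the 10 were closest to *Ralgapb*, *Zkscan3*, *Pcdh1*, *Ptma* and *Irf2bp1*, and their DMSO values ranged from 279 to 406. On the percentile scale both JNKi values lay below both DMSO values at 6 of the 10 (*Tln2*, *Gpr161*, *Zkscan3*, *Pcdh1*, *Ptma* and *Irf2bp1*), and the ranges overlapped at *Rabepk*, *Ralgapb*, *Bbc3* and *Pax2*. The 10 were chosen for high DMSO values, and the same was seen at 22.7% of all H3K4me3 peaks paired 1 to 1 between the lists, so nothing is read from that count.

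**Figure D1:**
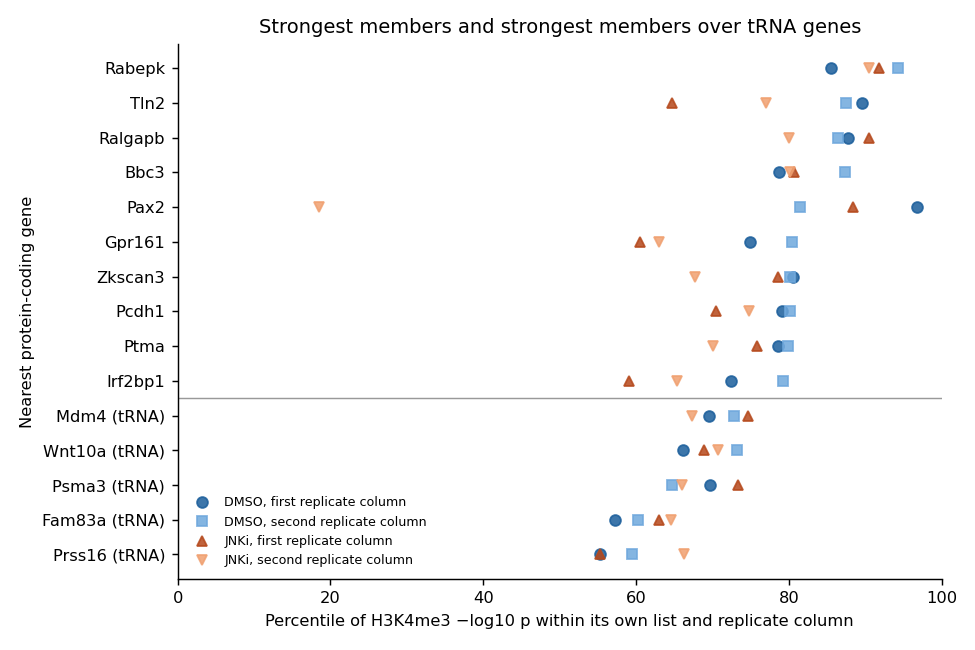
Percentile of H3K4me3 −log10 p (x axis, 0 to 100) in each replicate column of the DMSO and JNKi lists for the 10 strongest members (above the line) and the 5 strongest members over tRNA genes (below it), named by closest protein-coding gene. Each symbol is 1 replicate column, and the JNKi second column of Pax2 lies at 18.5 while its other values are 81.5 or higher.

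A set of members stood over tRNA genes, the templates of transfer RNAs. A tRNA gene of the RefSeq annotation lay under 57 members (2.73%; 2.12 to 3.52), under 7 intragenic peaks (0.282%) and under 52 promoter peaks (0.401%), against 0.630% of all DMSO H3K4me3 peaks. The 57 members covered 91 of 403 annotated tRNA genes, for 18 amino acids, with leucine (12), lysine (8), alanine, arginine, glycine and threonine (7 each) the most frequent, and 21 members covered more than 1 gene. On chromosome 13 there were 21 such members, all between 21 and 24 Mb, beside *Zkscan3*, *Trim27* and *Prss16*, where 29 members lay in all. tRNA genes were looked at after first results of these data were seen, so the counts carry no test. The Mdm4 member printed above lay 406 bp from a RefSeq tRNA start but 7755 bp from the nearest GENCODE basic start. The rule, which used the GENCODE basic starts, could thus place peaks at tRNA genes among the members.

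Over the 57 tRNA members, DMSO −log10 p ran from 5.41 to 265 in the first column (median 111) and from 6.53 to 242 in the second (median 83.9). The JNKi columns had medians of 176 (range 17.8 to 349) and 112 (5.39 to 262). These peaks were thus strong for members, with a median deposited −log10 p of 80.5, and 50 of the 57 had an IDR of at most 0.05. The Mdm4 member printed above, over 2 lysine tRNA genes, gave 264 and 240 in DMSO and 349 and 238 in JNKi. The member near *Wnt10a*, over the glycine tRNA gene n-TGgcc3, gave 239 and 242 in DMSO and 307 and 262 in JNKi. Summits lay a median of 330 bp from the middle of the closest tRNA gene. tRNA genes recur as near-identical copies, and the methods of the study state that secondary alignments and reads of low quality score were removed. How this bears on the values at tRNA genes was not tested.

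CpG content separated members from promoter peaks. In 500 bp around the summit, 318 members (15.2%; 13.8 to 16.9) met a CpG island criterion, an observed to expected CpG ratio above 0.6 with GC content above 50%. The criterion was met by 313 intragenic peaks (12.6%; 11.4 to 14.0), by 65.3% of promoter peaks (64.4 to 66.1) and by 49.5% of all DMSO H3K4me3 peaks. The median CpG ratio was 0.45 in members, 0.39 in intragenic peaks and 0.70 in promoter peaks. Members met the criterion less often than promoter peaks (odds ratio 0.0957, p by Fisher's exact test no higher than 1e-300, the smallest value resolved). The excess over intragenic peaks was small (odds ratio 1.24, Fisher's exact test, adjusted p = 0.0155) and varied with the settings. The odds ratio was 1.46 with a start-site limit of 10 kb and 1.45 without peaks near RefSeq starts, both past the threshold, but 0.68 with a limit of 1 kb, also past it, and 0.98 when only peaks of IDR at most 0.05 were used. Every Fisher's exact test here was two-sided, with p-values adjusted over 14 tests. Peaks were the units, so the p-values describe the lists and carry no error between cultures. Annotation and base composition are linked in the genome, so tests of sequence features, repeats included, only describe the classes.

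Repeat sequence was more frequent at members than in the other classes. At least 50% of the 500 bp was soft-masked repeat sequence at 129 members (6.18%; 5.23 to 7.30), at 67 intragenic peaks (2.70%; 2.13 to 3.42) and at 59 promoter peaks (0.455%; 0.353 to 0.587), against 1.54% of all DMSO H3K4me3 peaks. The share was higher in members than in intragenic peaks (odds ratio 2.37, Fisher's exact test, adjusted p = 3.5425e-08) and than in promoter peaks (odds ratio 14.4, Fisher's exact test, adjusted p = 4.30875e-66). The median −log10 p was 18.5 in repeat-rich members and 18.9 over all members.

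**Figure D2:**
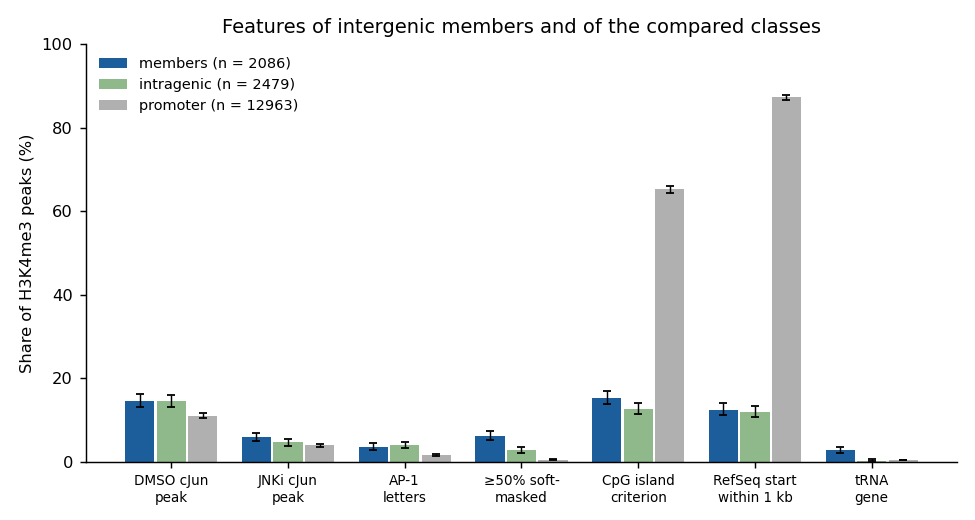
Share of peaks (y axis, percent, from 0) with each feature among members, intragenic peaks and promoter peaks, with Wilson 95% intervals as error bars. Members and intragenic peaks have near equal bars for DMSO cJun (14.6% and 14.4%), and promoter bars stand far above both for the CpG island criterion (65.3%) and for RefSeq starts (87.3%).

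Within the members, features changed with H3K4me3 strength. When members were divided into 5 equal bins by DMSO −log10 p, the CpG island share was 3.35% in the weakest bin (14 of 418), then 9.59%, 12.7%, 18.5% and 32.1% in the strongest (134 of 417). A RefSeq start lay within 1 kb of 6.94% of the weakest bin and 25.9% of the strongest, and a tRNA gene under 0.718% and 9.11%. The AP-1 letters ran the other way, from 5.02% in the weakest bin to 2.398% in the strongest. The letters TGTTTAC, bound by FOXA factors, were in 6.46%, 3.12%, 5.995%, 2.64% and 2.88% of the bins, with no steady order. A JNKi cJun peak overlapped 9.09% of the weakest bin (6.69 to 12.2), then 7.67%, 3.84%, 4.32% and 4.56% in the strongest (2.94 to 7.01). The middle bin was thus the lowest. DMSO cJun overlap had no steady order, at 17.9% in the weakest bin, 11.99% in the middle bin and 17.03% in the strongest. Peaks meanwhile widened from a median of 608 to 1606 bp. The bins share the lists' depth and are given as description, since H3K4me3 chose the members.

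**Figure D3:**
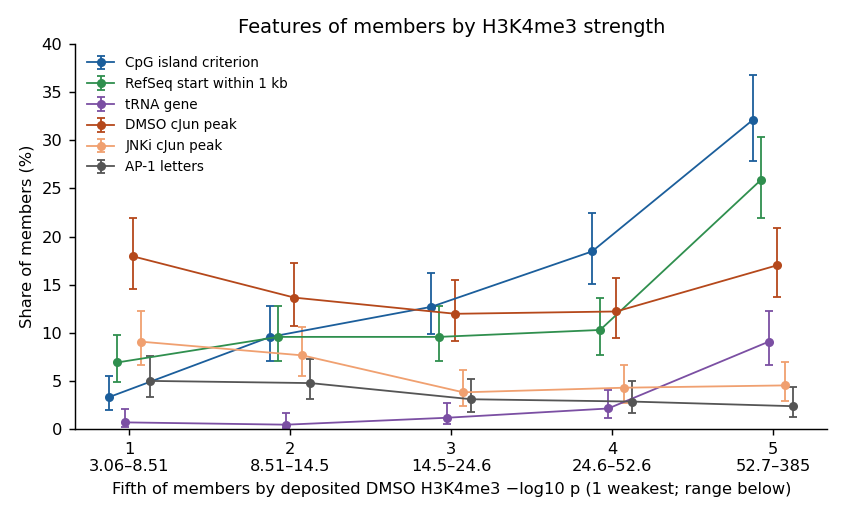
Share of members (y axis, percent) with each feature in 5 bins of DMSO H3K4me3 −log10 p (x axis, weakest to strongest, with the range of −log10 p under each bin), with Wilson 95% intervals. CpG island and RefSeq start shares climb to 32.1% and 25.9% in the strongest bin, and JNKi cJun and AP-1 shares are highest in the weakest.

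The next question was how often cJun itself was detected at these regions, a measure the rule did not use. A DMSO cJun peak overlapped 304 members (14.6%; 13.1 to 16.2), 358 intragenic peaks (14.4%; 13.1 to 15.9), 1427 promoter peaks (11.01%; 10.5 to 11.6) and 12.6% of all DMSO H3K4me3 peaks. The difference from intragenic peaks did not pass the threshold (odds ratio 1.01, Fisher's exact test, adjusted p = 0.899), whereas members exceeded promoter peaks (odds ratio 1.38, Fisher's exact test, adjusted p = 1.22e-05), though members are shorter. The cJun lists were kept whole, though 8.97% of the DMSO and 15.6% of the JNKi cJun peaks had an IDR of at most 0.05, so most of their peaks were not called reproducible at that level. With cJun peaks of IDR at most 0.05, the difference from intragenic peaks passed (odds ratio 1.80, Fisher's exact test, adjusted p = 0.0419). With H3K4me3 peaks of IDR at most 0.05 only, the excess over promoter peaks no longer passed (odds ratio 1.21, Fisher's exact test, adjusted p = 0.0818). Per megabase of H3K4me3 peak there were 146 DMSO cJun peaks at members, 137 at intragenic peaks and 50.2 at promoter peaks. A cJun peak counted if it touched by 1 bp, which raises the density of shorter H3K4me3 peaks. The part of width in these densities was not tested.

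A JNKi cJun peak overlapped 123 members (5.90%; 4.96 to 6.99), 115 intragenic peaks (4.64%; 3.88 to 5.54) and 505 promoter peaks (3.896%; 3.58 to 4.24), against 4.42% of all DMSO H3K4me3 peaks. The difference was past the threshold against promoter peaks (odds ratio 1.55, Fisher's exact test, adjusted p = 0.000131) and not against intragenic peaks (odds ratio 1.29, Fisher's exact test, adjusted p = 0.0780). The excess over promoter peaks was not past it with H3K4me3 peaks of IDR at most 0.05 (odds ratio 1.10) or with cJun peaks of IDR at most 0.05 (odds ratio 1.51). In all, 94 members had a cJun peak in both treatments, 210 in DMSO only, 29 in JNKi only and 1753 in neither. A cJun peak in both was thus at 4.51% of members (3.70 to 5.48), against 3.23% of intragenic peaks, 2.58% of promoter peaks and 3.08% of all DMSO H3K4me3 peaks, with no test of these shares. Of all DMSO H3K4me3 peaks 9.53% had a cJun peak in DMSO only, 1.35% in JNKi only and 86.0% in neither. The JNKi cJun list held 1632 peaks against 4960 in DMSO, and the part of list size in the lower overlap was not tested.

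The cJun peaks at members were more often found again in the JNKi list than those at intragenic or promoter peaks, though not under every setting. Of 316 DMSO cJun peaks that touched members, 98 (31.0%; 26.2 to 36.3) overlapped a JNKi cJun peak, against 23.6% of all 4960 DMSO cJun peaks and 22.7% of the 2649 at any DMSO H3K4me3 peak. The share was 81 of 374 (21.7%; 17.8 to 26.1) at intragenic peaks (odds ratio 1.63, Fisher's exact test, adjusted p = 0.0109) and 337 of 1525 (22.1%; 20.1 to 24.2) at promoter peaks (odds ratio 1.58, Fisher's exact test, adjusted p = 0.00205). With cJun peaks of IDR at most 0.05, which left 44 at members, the shares were 36.4%, 37.9% and 38.2% and the order was lost. The contrast with promoter peaks also failed with H3K4me3 peaks of IDR at most 0.05 (odds ratio 1.51, Fisher's exact test, adjusted p = 0.0798), and that with intragenic peaks without peaks near RefSeq starts (odds ratio 1.502, Fisher's exact test, adjusted p = 0.0544). DMSO cJun peaks at members also ranked higher in their own list, at a median percentile of 56.0 against 49.5 at intragenic and 50.2 at promoter peaks, and their part in the retained share was not tested.

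Named examples differ in how strong cJun was. The *Tex44* member, 340 bp from a predicted long non-coding RNA start, had a DMSO cJun peak of 30.6 and 42.7, rank 34 of 4960, and a JNKi cJun peak of 20.9 and 21.9, rank 52 of 1632. H3K4me3 there reached 157 and 150 in DMSO, with 234 and 177 in JNKi. At *Ccdc9*, 3 DMSO cJun peaks fell on 1 member of 3276 bp, the strongest with 25.6 and 21.1, and 2 JNKi cJun peaks overlapped it. That member and the *Bbc3* member are neighbours on chromosome 7, and only the former had cJun in both lists. The Gm15446 member printed above lies 177 bp from a RefSeq start of *AB010352*, with cJun of 10.8 and 15.7 in DMSO and 8.28 and 12.02 in JNKi. *Tle2*, for a Groucho-type corepressor, had cJun of 19.1 and 15.4 in DMSO and 12.9 and 22.7 in JNKi, and the fifth of the set, near *Znrf4*, had 6.32 and 9.70 and 5.62 and 8.63.

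AP-1 letters were uncommon at members. TGAGTCA or TGACTCA occurred within 100 bp of the summit of 76 members (3.64%; 2.92 to 4.54), 98 intragenic peaks (3.95%; 3.25 to 4.79), 220 promoter peaks (1.70%; 1.49 to 1.93) and 2.41% of all DMSO H3K4me3 peaks. Members exceeded promoter peaks (odds ratio 2.19, Fisher's exact test, adjusted p = 1.9e-07) and the difference from intragenic peaks did not pass (odds ratio 0.92, Fisher's exact test, adjusted p = 0.691). Over the whole peak, which gives the wider promoter peaks more letters to match, the first order turned round, with 17.9% of members and 26.2% of promoter peaks (odds ratio 0.62). Members with a DMSO cJun peak held the letters more often than those without, 20 of 304 (6.58%; 4.30 to 9.94) against 56 of 1782 (3.14%; 2.43 to 4.06; odds ratio 2.17, Fisher's exact test, adjusted p = 0.0109). So 284 members with a DMSO cJun peak had no AP-1 letters in that window. Over the whole peak the letters were at 111 of the 304 (36.5%) and at 14.8% of members without cJun (odds ratio 3.32, Fisher's exact test, adjusted p = 1.66e-16), but members with cJun were also wider, at a median of 1085.5 bp against 847.5 bp, and the part of width was not tested. The difference near the summit was not past the threshold with a 50 bp flank (odds ratio 1.42), with IDR at most 0.05 in the H3K4me3 lists (odds ratio 1.60) or in the cJun list (odds ratio 2.08), or without members near RefSeq starts (odds ratio 1.46).

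The Larp1 member printed above combined both, with H3K4me3 of 272 and 200.6 in DMSO and 256 and 269 in JNKi and a DMSO cJun peak of 6.53 and 17.1. No JNKi cJun peak overlapped it, whereas the next members with letters and a DMSO cJun peak, near *BC030867* and *Azin1*, had a JNKi cJun peak as well. The difference in cJun overlap by CpG island status did not pass the threshold, with a DMSO cJun peak at 41 of 318 members that met the criterion (12.9%) and 263 of 1768 that did not (14.9%; odds ratio 0.85, Fisher's exact test, adjusted p = 0.453).

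Other letters were searched on both strands within 100 bp of the same summits. The MAFA and CRE words share the letters TGAC with TGACTCA, and the others share no such run with it. The FOXA word TGTTTAC was in 4.22% of members and 2.33% of all DMSO H3K4me3 windows. An E-box of the NEUROD1 type, CAGATGG, was in 4.84% and 3.57%, and the MAFA word TGCTGAC in 3.98% and 3.29%. The CRE word TGACGTCA was in 0.288% and 0.320%, the NRF1 word CGCATGCG in 0.288% and 0.294%, and the ETS word CCGGAAG in 2.68% and 3.91%. The CTCF consensus, searched by its name, was in 0.336% and 0.181%. In intragenic peaks the FOXA, NEUROD1 and ETS words were in 4.48%, 5.61% and 2.14%, and none of these shares was tested.

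At *Cck*, which encodes the peptide hormone cholecystokinin, 2 members lay past the 3′ end of the gene. The farther one, chr9:121486255-121487877, was 1947 bp past the gene end and gave −log10 p of 13.9 and 20.1 in DMSO. The nearer one, chr9:121488161-121489090, was 734 bp past it and gave 6.95 and 5.40. Both were weak, at DMSO percentiles between 3.35 and 25.5. A JNKi peak, chr9:121486295-121488808, with 21.8 and 11.9, overlapped both of them, so they are not independent in the JNKi list. The JNKi domain peak over the gene, chr9:121488991-121496408, with 536 and 3.998, also overlapped the nearer member, by 100 bp. Its replicate columns lay at percentiles 94.1 and 1.27, with an IDR of 0.282, so the second JNKi column again stood apart. The H3K4me3 domain over the gene itself, 7132 bp wide with 505 and 436 in DMSO, ended 144 bp from the nearer member's edge and is not a member. A DMSO cJun peak of 1209 bp overlapped the farther member with 7.45 and 3.06, rank 4898 of 4960, and a JNKi cJun peak of 602 bp with 8.75 and 4.27, rank 1360 of 1632. A cJun peak was thus listed there under both treatments at low rank, with IDR values of 0.729 in DMSO and 0.672 in JNKi and summits 17 bp apart, and in neither list at the nearer member. The window of 300 bases printed above, which is centred on the H3K4me3 summit and does not reach the cJun summits, held none of the AP-1, CRE, FOXA, NEUROD1, MAFA, NRF1 or ETS words.

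**Figure D4:**
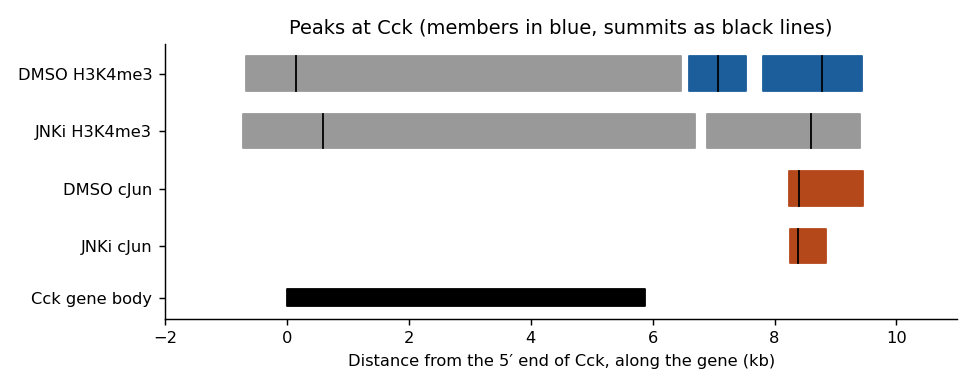
Peaks of the 4 lists at Cck along the distance from the gene's 5′ end (x axis, kb), with members in blue, other H3K4me3 peaks in grey, cJun peaks in red, summits as black lines and the gene body of 5871 bp in black. The 2 members lie past the 3′ end, a JNKi H3K4me3 peak overlaps both, the JNKi domain peak reaches the nearer one, and the cJun peaks of both treatments fall on the farther member.

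Each member had to be present in both H3K4me3 lists, so the treatments were compared by its place within each list, with no test. An exact permutation of 2 against 2 columns could not give a p below 0.3333. Among the 2027 members that paired 1 to 1 with a JNKi peak, both JNKi percentiles lay above both DMSO percentiles at 285 (14.1%) and below them at 453 (22.3%). Over all 17494 peaks paired in this way the shares were 13.8% and 22.7%, so members did not stand apart from the list. The median JNKi minus DMSO percentile was −0.96 (quartiles −4.91 to 3.23), and the median gap between the DMSO replicate columns was 4.52 points. Widths were alike, with a median JNKi to DMSO ratio of 1.02, and summits lay a median of 27 bp apart.

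The same counts were taken for kinds of member, with no test. Of 49 members over tRNA genes in 1 to 1 pairs, 15 had both JNKi percentiles above both DMSO percentiles (30.6%) and 3 below (6.12%), against 13.7% and 22.8% of the 1978 members without a tRNA gene. In the strongest bin of members the counts were 9 and 3 of 34 with a tRNA gene, and 34 and 123 of 373 without. That bin was chosen for high DMSO values, so nothing is read from how many of its members lay below. Among 60 tRNA-bearing H3K4me3 peaks that were not members the same counts were 20 and 1. Members that met the CpG island criterion were above in 36 (11.6%) and below in 96 (30.9%) of 311 pairs. Members with a cJun peak in DMSO but not in JNKi were above in 24 (12.2%) and below in 53 (27.04%) of 196, and those with cJun in both lists above in 16 (17.8%) and below in 12 (13.3%) of 90. The shares were 13.7% and 22.5% of the 1712 members without cJun in either list, and 13.8% and 22.7% of all peaks paired 1 to 1. These splits were looked at after first results were known, and the H3K4me3 contrast chose the members.

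**Figure D5:**
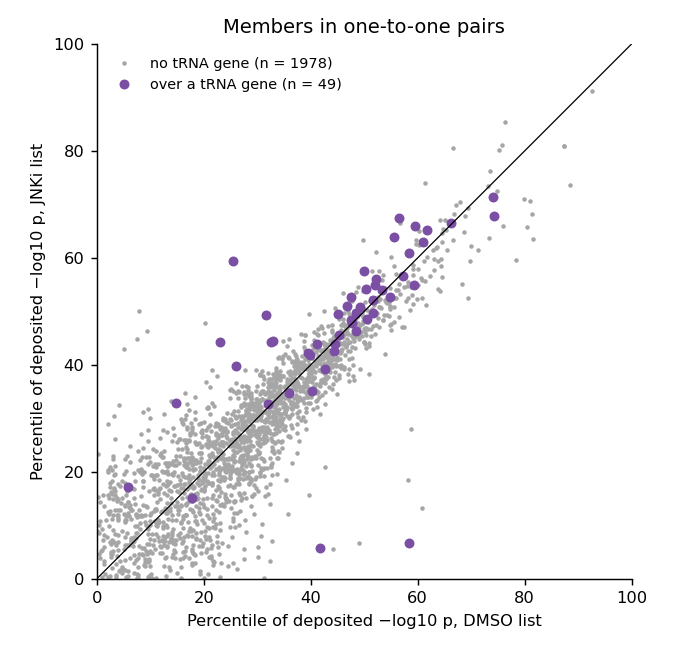
Percentile of the deposited H3K4me3 −log10 p in the DMSO list (x axis) and the JNKi list (y axis) for the 2027 members paired 1 to 1, with the 49 over a tRNA gene in purple and the diagonal marking equal percentiles. Most points lie close to the diagonal, and the tRNA members sit mainly on or above it.

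On the percentile scale, the widest separations between treatments were at members of low to moderate strength, given here by their −log10 p. Near *Yeats4*, DMSO gave 6.64 and 8.19 and JNKi 34.3 and 23.4. Another member had *Ppargc1a*, the gene for PGC-1α, as its closest protein-coding gene, though 299886 bp away. DMSO gave 6.28 and 8.42 there and JNKi 25.3 and 27.6. In the other direction were members near *Barx1*, a homeobox gene (11.3 and 22.6 in DMSO, 3.65 and 3.12 in JNKi), *Fndc1* (20.5 and 30.5, 12.4 and 7.61) and *Cplx2*, for the exocytosis regulator complexin 2 (30.1 and 25.3, 15.98 and 8.38). These 5 were named after their values were seen. Replicate columns themselves differed by more than 25 percentile points at 15 members in DMSO (0.719%) and at 33 in JNKi (1.58%), where a member overlapped by several JNKi peaks took the strongest of them. Over all 18093 DMSO peaks with a JNKi partner the shares were 3.43% and 3.08%. The largest gaps at members were 48.0 points in DMSO and 69.9 points in JNKi, the latter from the JNKi peak shared by those 2 *Pax2* members, with percentiles of 88.3 and 18.5.

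Members were also assigned to gene lists of the pathway and tissue by closest protein-coding start. Of 26 AP-1 and immediate early genes, 6 had members, 14 in all: *Nr4a1* 4, *Fos* 3, *Btg2* 3, *Klf4* 2, *Egr1* 1 and *Creb1* 1, with a DMSO cJun peak at 5 of the 14, against 14.6% of all members and 12.6% of all DMSO H3K4me3 peaks. The strongest, 12841 bp from the start of *Fos*, gave 231 and 182 in DMSO and 260 and 216 in JNKi. The *Egr1* member gave 175 and 146 in DMSO and 181 and 20.0 in JNKi, so again the second JNKi column stood apart. Of 20 genes of the JNK pathway and the MAP kinase phosphatases, 3 phosphatase genes had 7 members, *Dusp5* 4, *Dusp6* 2 and *Dusp4* 1, with a DMSO cJun peak at 4 and a JNKi cJun peak at 3. For JNKi cJun the shares of all members and of all DMSO H3K4me3 peaks were 5.90% and 4.42%. With so few members, and several at 1 gene, nothing is read from the cJun counts of these lists. The strongest of these, near *Dusp6*, gave 92.2 and 67.1 in DMSO and 83.8 and 57.8 in JNKi.

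Among 31 β cell and endocrine transcription factor genes, 6 had 9 members, *Nkx6-1* 3, *Mnx1* 2 and 1 each at *Mafa*, *Neurod1*, *Isl1* and *Rfx6*, with a DMSO cJun peak at 2 and a JNKi cJun peak at none, counts too small to set apart from the 14.6% and 5.90% of all members. The *Mnx1* member 10009 bp from its start gave 210 and 173 in DMSO and 211 and 170 in JNKi, and the *Mafa* member 73.9 and 63.8 and 103 and 39.8. Of 24 islet hormone and granule genes, 4 had 9 members, *Chga* 4, *Cck* 3, *Chgb* 1 and *Ppy* 1, at a median percentile of 20.6. The third *Cck* member lies more than 50 kb from the gene. A DMSO cJun peak overlapped 5 of these 9 and a JNKi cJun peak 3, beside the same 14.6% and 5.90% of all members and 12.6% and 4.42% of all DMSO H3K4me3 peaks. The *Ppy* member, beside the gene for pancreatic polypeptide, gave 45.5 and 49.5 in DMSO and 48.0 and 47.5 in JNKi, and the *Chga* member 26.3 and 18.6 and 21.3 and 14.4.

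Of 17 glucose sensing and excitability genes, *Gcgr*, the glucagon receptor gene, had 2 members and *Rapgef4* 1, and the stronger *Gcgr* member (34.9 and 38.8 in DMSO, 34.4 and 26.8 in JNKi) carried cJun in both lists. Of 21 unfolded protein response genes, *Eif2ak3* and *Pdia4* had 2 members each and *Sel1l* and *Xbp1* 1 each. The *Xbp1* member gave 161 and 160 in DMSO and 212 and 158 in JNKi, and the stronger *Eif2ak3* member, at the gene for the stress kinase PERK, 99.97 and 87.3 and 103 and 85.8 with cJun in both lists. Of 42 developmental homeobox and forkhead genes, 10 had 15 members, with a cJun peak in either list at 1 of them, where 84.0% of all members and 86.0% of all DMSO H3K4me3 peaks had none. The *Six3* member, 127858 bp from that start, gave 92.1 and 78.2 in DMSO and 82.4 and 41.1 in JNKi. None of 23 acinar, ductal, immune and stromal marker genes was closest to a member. Each list's count stands beside 7.60% of all 21911 protein-coding genes that were closest to a member, and the lists were read as counts with no test.

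Reference enhancers overlapped 26 members. An element of the VISTA collection, tested in transgenic mouse embryos, lay under 1.25% of members (0.852 to 1.82), 24 intragenic peaks (0.968%), 15 promoter peaks (0.116%) and 0.367% of all DMSO H3K4me3 peaks, shares that were not tested. The strongest, near *Wnt10a*, is the glycine tRNA member described above, and its element was recorded with heart activity. The second, near *Actg1*, gave 169 and 159 in DMSO and 190 and 132 in JNKi and was recorded in dorsal root ganglion. The third, near *Wee1*, the gene for a kinase that delays mitosis, gave 94.3 and 125 in DMSO and 106 and 100.2 in JNKi and was recorded in heart and dorsal root ganglion. A member 18225 bp from the start of *Fos*, also recorded in heart, gave 120 and 91.7 and 144 and 113. These tissues are not those of the whole set, in which hindbrain was recorded at 15 members, midbrain at 12, forebrain at 9 and heart at 5. The 26 members had a median −log10 p of 29.9.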

How the data were processed

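CUT&RUN was performed on Min6 cells treated with DMSO or SP600125. Per the methods of the study and the submitters' processing notes, the authors trimmed reads with Trimmomatic, aligned them to GRCm38 with Bowtie2 2.4.2, used SAMtools 1.16 to drop secondary alignments and reads of low quality score, called narrow peaks against IgG with MACS2 2.2.7.1 and matched replicates by IDR. The lists were not filtered on an IDR of 0.05. The deposited files hold, per peak, the −log10 p of both replicates, with the lower as the merged value, and an IDR score. Score columns of the deposited files were used only as the −log10 IDR. The depth reached by each library is not in the files. Replicate columns carry no sample number.

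The rule was applied with GENCODE vM21 basic on GRCm38, the build of the files. Members and lists were chosen with earlier results of these data known. Features came from the GRCm38 reference and RefSeq (403 tRNA genes). Shares carry Wilson 95% intervals, which cover counting error only. The 14 two-sided Fisher's exact tests across peaks (SciPy 1.17.1) were adjusted by Benjamini-Hochberg, with 0.05 as threshold, and the code was tested on simulated data. Named members were the 10 strongest, the 5 strongest with cJun in both lists, the 5 strongest CpG island members, the 3 strongest with AP-1 letters and DMSO cJun, those within 50 kb of Cck, up to 3 per gene list, and the 3 nearest each limit. A few of these and 1 sequence are not reported here.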

Additional observations from a re-analysis of the deposited data

How the results depend on the processing

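The 14 Fisher tests were recomputed under 17 alternatives, 14 planned and 3 added after the data were seen (without RefSeq starts, without tRNA genes, and cJun by summit distance), giving 168 values. Of these, 142 kept their direction and side of the threshold, 12 no longer passed, 3 newly passed and 11 turned round, 5 of them past the threshold in neither fit. The number of members was 1245 with a 10 kb limit and 1067 with H3K4me3 IDR at most 0.05. The other alternatives gave up to 3125, with protein-coding genes only.

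The odds ratio for the CpG island criterion, members against intragenic peaks, was 0.683 with a 1 kb limit, 0.978 with H3K4me3 IDR at most 0.05 and 0.894 with the stricter criterion, all turned round. It was 1.20 with 50% reciprocal overlap, 1.08 with a 1000 bp window and 1.20 without tRNA genes, no longer passing. With H3K4me3 IDR at most 0.05, the contrasts with promoter peaks no longer passed for DMSO cJun (1.21), JNKi cJun (1.10) and cJun retention (1.51), nor did AP-1 letters by cJun (1.60). With cJun IDR at most 0.05, DMSO cJun against intragenic peaks newly passed (1.80), JNKi cJun against promoter peaks (1.51) and AP-1 by cJun (2.08) no longer passed, and retention turned round against intragenic (0.935) and promoter peaks (0.925). AP-1 by cJun also failed with a 50 bp flank (1.42) and without RefSeq starts (1.46), as did retention against intragenic peaks without RefSeq starts (1.502). AP-1 against promoter peaks turned round over the whole peak (0.617), where wider peaks hold more letters. JNKi cJun against intragenic peaks newly passed without repeat-rich peaks (1.35) and by summit distance (1.38). The 5 that passed in neither fit were DMSO cJun against intragenic peaks with a limit of 1 kb (0.960), with 10 kb (0.850) and with H3K4me3 IDR at most 0.05 (0.943), and DMSO cJun by CpG island status with a 1000 bp window (1.18) and the stricter criterion (1.04). For the others the cause was not tested. The repeat contrasts were not recomputed without repeat-rich peaks, which leaves none to count.

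No paired analysis was possible because the replicate columns of each merged list carry no numbers. Without such numbers a fit that drops 1 sample was not run either. Groups of 2 are too small for a test of single outlying samples, and the depth reached by each library, which limits weak peaks, is not in the files.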
